A study of Mus musculus with 6 samples.

Results

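The collagen genes were described in inguinal adipose tissue (iAT) of mice at postnatal day 6, in 3 wild-type samples (WT) and 3 knockout samples (Npffr1-KO), in which the gene encoding receptor 1 for neuropeptide FF, *Npffr1*, was ablated. The members were all genes of the deposited table whose symbol is Col, digits, a and digits with nothing after them. This gave 44 of the 19831 listed genes, of which 11 encode fibrillar chains, 8 encode chains of the basement membrane and 25 encode other collagens. The other collagens comprised 9 fibril-associated chains, 6 chains of beaded filaments, 3 short chains, 1 chain of anchoring fibrils, 4 transmembrane chains and 2 remaining ones. The labels give the genotype, the tissue, the day and housing free of specific pathogens for every sample, and name neither the allele nor whether each sample came from a separate animal. The p-values given here therefore measure the spread between these samples, which may be technical. The table lists 1 value per gene and genotype, without a spread. These values are on the scale of read counts normalized for library size, but they are not the mean counts of the libraries of a genotype. Their mean is that of all 6 libraries, and their ratio is the moderated fold change of the authors, which is drawn toward 1 for genes with few reads. The ratios below, and the counts and medians over them, are therefore restatements of that fold change. Where a gene is low, the values of both genotypes lie closer together than its reads do. These values add up to 23137343 in WT and 23640005 in Npffr1-KO.

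Collagens are the main structural proteins of the extracellular matrix. Their chains wind around each other in a triple helix, which needs the smallest amino acid, glycine, at the first place of each repeat of the form glycine-X-Y. Fibrillar collagens form the tensile fibres of connective tissue, and type IV collagen forms the network of basement membranes, which in adipose tissue surround every adipocyte and every blood vessel. Fibril-associated collagens sit on the surface of fibrils, and type VI collagen forms beaded microfilaments around cells, adipocytes included.

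The classes differ in how their coding sequences carry this repeat, and 4 stretches are shown because the genes they come from recur in the comparisons that follow. All 44 members had a protein-coding transcript in GENCODE M21, and the longest open reading frame was as long as the annotated coding sequence in all 44. Each stretch covers 30 codons of that frame, with the glycine codons of runs of at least 5 repeats in capitals. The stretch of *Col1a1*, a chain of type I collagen, opens its longest run at codon 168 and lies in exons 6 to 8 of 51 (GRCm38 chr11:94939451-94939939, plus strand, introns included in the span). That of *Col24a1*, a fibrillar chain of low level, opens its longest run at codon 568 in exons 6 to 8 of 60 (chr3:145325728-145337844, plus strand). The stretch of *Col4a1*, a chain of type IV collagen, starts at codon 212 in exons 11 to 13 of 52 (chr8:11241179-11242799, minus strand) and contains an interruption of 2 codons. The one of *Col6a6*, a chain of type VI collagen, starts at codon 1505 in exons 18 to 20 of 37 (chr9:105747308-105754190, minus strand) and contains an interruption of 4 codons.
Col1a1: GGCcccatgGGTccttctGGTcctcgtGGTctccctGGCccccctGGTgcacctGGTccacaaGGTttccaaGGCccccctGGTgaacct
Col24a1: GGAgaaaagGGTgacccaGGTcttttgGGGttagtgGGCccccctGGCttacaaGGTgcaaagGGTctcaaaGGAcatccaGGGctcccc
Col4a1: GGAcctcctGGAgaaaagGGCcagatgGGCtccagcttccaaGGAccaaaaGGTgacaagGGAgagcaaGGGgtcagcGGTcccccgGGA
Col6a6: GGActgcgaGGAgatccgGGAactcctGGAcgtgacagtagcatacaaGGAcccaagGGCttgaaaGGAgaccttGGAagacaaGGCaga

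In the 11 fibrillar chains the longest run held 216 to 344 repeats, with a median of 338. *Col24a1* and *Col27a1* had the shortest of these, with 216 and 217 repeats. In the 8 basement membrane chains the longest run held 30 to 66 repeats, and 11 to 27 separate runs were found per chain. The 25 other chains held longest runs of 23 to 113 repeats. Exon structure followed the same division. Of the 649 coding exons of the fibrillar genes 47.0% measured exactly 54 bases, against 4.24% of 377 in basement membrane genes and 15.2% of 976 in the others.

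**Figure D1:**
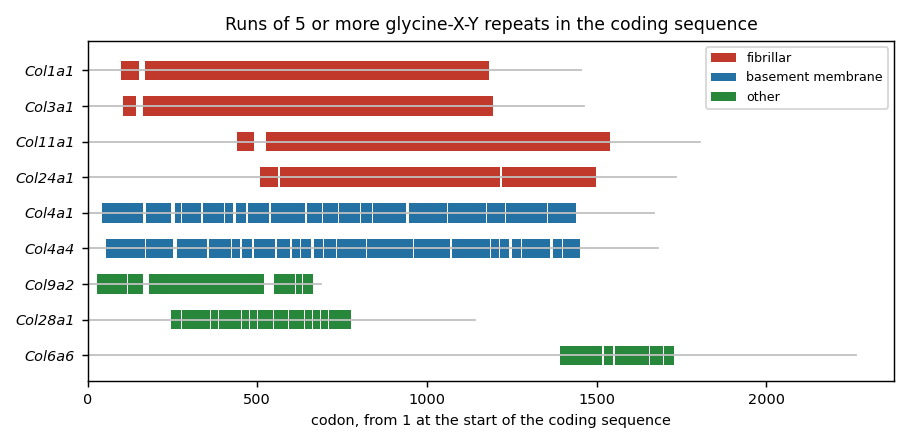
Runs of at least 5 glycine-X-Y repeats (bars) along the coding sequence (line, in codons) of 9 collagen genes, coloured by class. The fibrillar *Col1a1* holds a longest run of 338 repeats, whereas *Col4a1* is divided into 22 runs, the longest of 40 repeats.

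Collagen genes were among the most abundant of the tissue. *Col1a1* had the highest WT value of all 19831 genes, *Col3a1* was the 3rd, *Col1a2* the 6th and *Col4a1* the 9th. These ranks are of values not divided by gene length, which favours long genes. After division by gene length, *Col1a1* ranked 11th, *Col3a1* 14th, *Col1a2* 27th and *Col4a1* 110th among all genes in WT. All 44 members together took 4.67% of the normalized counts in WT and 3.74% in Npffr1-KO. *Col1a1*, *Col1a2* and *Col3a1* alone, which encode the chains of type I and type III collagen, took 3.12% in WT and 2.45% in Npffr1-KO. The remaining members took 1.55% and 1.29%.

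Levels of different genes were compared per 1000 bases of the deposited gene length. On that scale the WT levels ran from 49957 for *Col1a1* to 1.36 for *Col10a1*, a collagen of hypertrophic cartilage. *Col3a1* (45821) and *Col1a2* (32593) followed *Col1a1*, and then came *Col4a1* (14227), *Col6a1* (9995), *Col6a2* (9747), *Col4a2* (8572), *Col15a1* (5388), *Col5a3* (3277) and *Col5a1* (3248). Neighbours in this order, such as *Col6a1* and *Col6a2* or *Col5a3* and *Col5a1*, cannot be set apart, because no spread belongs to these values. The 10 highest levels thus belonged to types I, III, IV, V, VI and XV. Adipocyte genes were high in the same table, with 156285 normalized counts for *Fabp4* (646 bases) and 37027 for *Adipoq* (1233 bases) in WT. These counts are not divided by length and are not on the scale of the levels above. *Col1a1* had 297042 such counts in WT over 5946 bases.

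**Figure D2:**
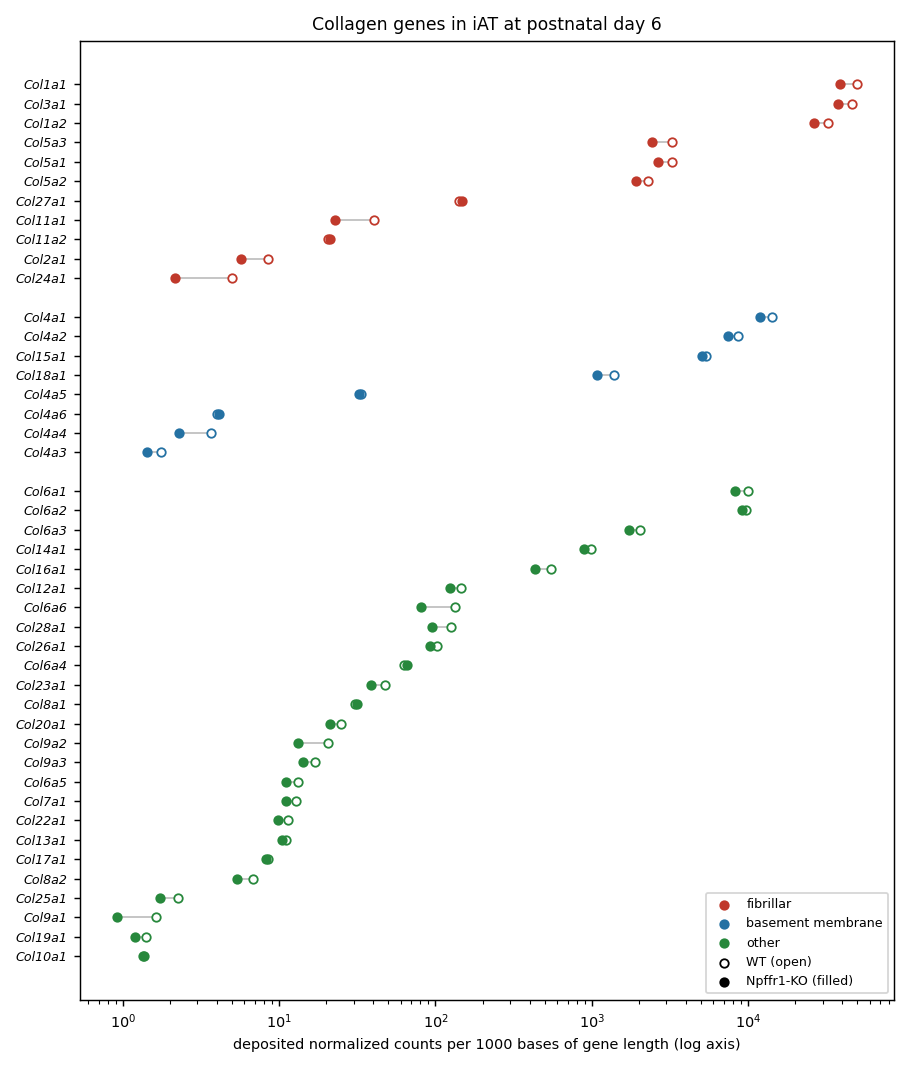
Deposited normalized counts per 1000 bases of gene length (log axis) of the 44 collagen genes in WT (open circles) and Npffr1-KO (filled circles), sorted within each class by the WT level. Each circle is 1 value per genotype, so no error bar can be drawn. *Col1a1* lies at 49957 in WT, and *Col24a1* shows the widest gap, with an Npffr1-KO value 0.429 times that of WT.

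Between genotypes, most collagen genes had a lower value in Npffr1-KO. Of the 42 members with a mean of the 2 values of at least 10, 37 lay below a ratio of 1 of Npffr1-KO over WT, and the median log2 ratio was -0.25. Over all 15309 genes with such a mean, 7474 lay below 1 and the median was 0.01. A value at least 20% lower was found for 13 of the 42 members, against 11.6% of all genes. None was at least 25% higher, which is the same distance on the log scale, against 12% of all genes. These counts have no replicate check.

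Gene length moved with the ratio in the whole table. In 20 classes of length the median log2 ratio went from 0.27 in the shortest genes to -0.15 in the longest, and the collagens, with a median length of 6247 bases against 2785 of all genes, lay mostly at the long end. In the 3 longest classes, from 5153 bases on, 8 of 30 members were at least 20% lower, against 19.2% of the 2296 genes there. Below a ratio of 1 lay 26 of these 30 members and 1724 of the 2296 genes. The median log2 ratios were -0.25 for the members and -0.13 for all. Each log2 ratio was therefore also taken relative to the median of genes of like length. After this centring the median of the 42 members was -0.16, and 34 of them lay below 0, against 7649 of all 15309 genes. At least 20% lower were then 7 of 42 members, against 11.6% of all genes, and none was at least 25% higher, against 8.2%. The 7 were *Col24a1*, *Col11a1*, *Col9a2*, *Col6a6*, *Col4a4*, *Col2a1* and *Col28a1*.

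The members were also read by level. Among the 17 members with a mean of at least 1000, 16 lay below 1, against 2472 of all 5283 genes with such a mean. The log2 ratios of the 17 stayed between -0.43 and 0.07. Of these 17, 4 were at least 20% lower, against 6.57% of the 5283 genes with such a mean, and after centring on length none of the 17 was. The members past that limit after centring all had means below 1000, and 4 of the 7 had means below 100. How many of all genes at these levels were past it after centring was not counted.

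**Figure D3:**
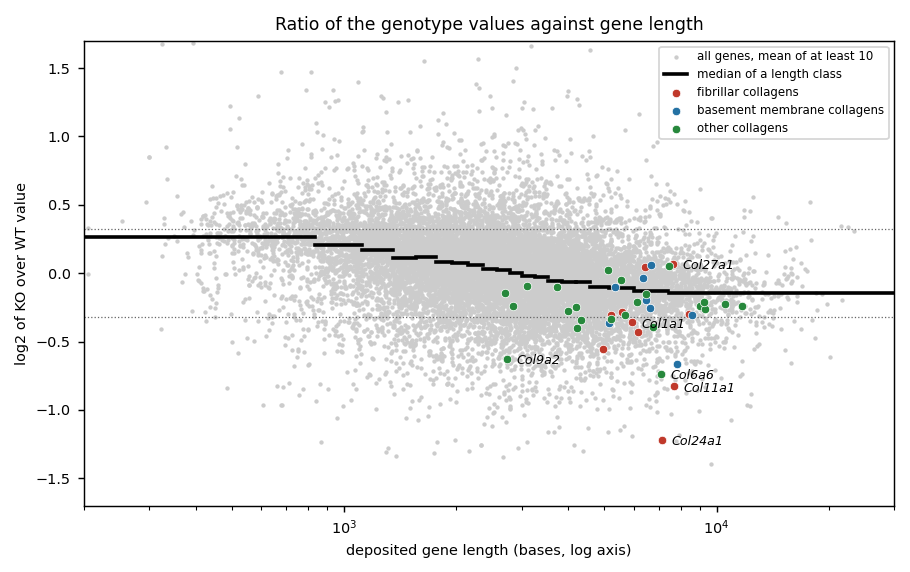
Log2 ratio of the Npffr1-KO over the WT value against the deposited gene length (log axis) for genes with a mean of at least 10 (grey), with the median of each of 20 length classes (black lines) and the 42 collagen genes in colour by class. The dotted lines mark 20% lower and 25% higher, genes beyond the axes are not drawn, and *Col24a1* at -1.22 lies farthest below its class median of -0.13.

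The fibrillar genes had a median log2 ratio of -0.31 before and -0.20 after centring on length, and 5 of 11 were at least 20% lower before and 3 after. *Col1a1* measured 297042 normalized counts in WT and 231621 in Npffr1-KO, a ratio of 0.780. Its partner *Col1a2* measured 170200 and 137651, a ratio of 0.809. *Col3a1*, the chain of type III collagen of distensible tissues such as vessels, measured 254949 and 209710, a ratio of 0.823. The chains of type I collagen kept nearly the same proportion per length, with 1.53 times as much *Col1a1* as *Col1a2* in WT and 1.48 times in Npffr1-KO. Type V collagen, which sits inside type I fibrils, had the same direction in all its chains. The ratios were 0.811 for *Col5a1* (27347 to 22188), 0.837 for *Col5a2* (15120 to 12649) and 0.740 for *Col5a3* (20103 to 14885).

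The less abundant fibrillar genes did not share 1 pattern. *Col24a1* measured 35.7 in WT and 15.3 in Npffr1-KO, a ratio of 0.429, the lowest of the family. *Col11a1*, which encodes a chain of cartilage fibrils and is also made by other connective tissues, measured 313 and 177, a ratio of 0.564. Its partner *Col11a2* measured 132 and 136, so that *Col11a1* per length was 1.98 times *Col11a2* in WT and 1.08 times in Npffr1-KO. *Col2a1*, the main collagen of cartilage, measured 41.7 and 28.4, a ratio of 0.681. *Col27a1*, another cartilage collagen, measured 1080 and 1134, a ratio of 1.05 and the highest of the family.

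In the basement membrane class the median log2 ratio was -0.23 before and -0.10 after centring, and 2 of 8 genes were at least 20% lower before and 1 after. *Col4a1* and *Col4a2*, the chains of the common type IV network, measured 94407 and 55438 in WT and 79307 and 48298 in Npffr1-KO, with ratios of 0.840 and 0.871. These genes are neighbours on opposite strands. In the RefSeq windows around gene starts (GRCm38.p6) their starts overlap by 22 bases, and per length *Col4a1* was 1.66 times *Col4a2* in WT and 1.60 times in Npffr1-KO. Whether the counting used the strand is not stated, so reads from the overlap cannot be assigned to either gene with certainty. *Col18a1*, whose product carries endostatin, measured 7147 and 5546, a ratio of 0.776. *Col15a1*, its closest relative, measured 28743 and 26860, a ratio of 0.934, and lay 0.01 above its length class on the log2 scale.

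The specialised type IV chains were low. *Col4a4* measured 28.4 in WT and 17.9 in Npffr1-KO, a ratio of 0.631, and its neighbour and partner *Col4a3* measured 15.1 and 12.2, a ratio of 0.809. *Col4a5* (211 and 206) and *Col4a6* (26.5 and 27.6), which are neighbours on chromosome X, had ratios of 0.976 and 1.04. Type IV genes therefore ranged from a log2 ratio of -0.66 to 0.06.

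Among the other collagens with a mean of at least 10, the median log2 ratio was -0.24 before and -0.11 after centring, and 6 of 23 genes were at least 20% lower before and 3 after. The main chains of type VI collagen measured 39878 and 32961 for *Col6a1*, 36348 and 33826 for *Col6a2*, and 18363 and 15541 for *Col6a3*, with ratios of 0.827, 0.931 and 0.846. *Col6a6*, an alternative to the *Col6a3* chain, measured 950 and 571, a ratio of 0.600. Per length, *Col6a3* was 15.2 times *Col6a6* in WT and 21.4 times in Npffr1-KO. The adjacent *Col6a5* and *Col6a4* had ratios of 0.835 and 1.04, so the 3 neighbouring genes of this stretch of chromosome 9 had different ratios.

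Every one of the 8 fibril-associated genes with a mean of at least 10 had a ratio below 1, against 7474 of all 15309 genes. After centring on length all 8 lay below 0, against 7649 of the 15309, with a median of -0.14. At least 20% lower after centring was 1 of the 8, against 11.6% of all genes. The most abundant of the 8 were *Col14a1* (6351 and 5723, a ratio of 0.901), *Col16a1* (2849 and 2260, 0.793) and *Col12a1* (1708 and 1446, 0.847). *Col9a2*, a chain of type IX collagen on cartilage fibrils, measured 56.3 and 36.4, a ratio of 0.648, and its partner *Col9a3* measured 48.1 and 40.7, a ratio of 0.846. *Col28a1*, known from the basement membranes around Schwann cells, measured 528 and 400, a ratio of 0.756. Of the short and transmembrane chains past that mean, *Col8a2* (0.789) and *Col25a1* (0.762) were at least 20% lower. *Col8a1* (1.02), *Col13a1* (0.937), *Col17a1* (0.967) and *Col23a1* (0.808) were not. *Col7a1*, the anchoring fibril chain, had a ratio of 0.863, and *Col26a1* one of 0.902.

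Neighbouring collagen genes were found 8 times in the RefSeq gene order. *Col3a1* and *Col5a2* on chromosome 1, both of them abundant, had log2 ratios of -0.28 and -0.26. *Col6a2* and *Col6a1* on chromosome 10 had -0.10 and -0.27. *Col9a1* and *Col19a1* on chromosome 1, both low, had -0.83 and -0.23.

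RefSeq windows around the gene start were given for 35 of the 44 members. The GC box GGGCGG, on either strand, was found in the windows of 22 of 35 members (62.9%), against 38.2% of 27025 genes. TATAAA was found in 14.3% of the members and 15.7% of all genes, and CCAAT in 37.1% and 41.1%, both strands counted and overlaps between motifs allowed. The 250 bases before the start are shown for *Col1a2*, as a member of high level, and for *Col24a1*, as the member of the lowest ratio, with these motifs in capitals. They lie on the plus strand of GRCm38.p6 at chr6:4505368-4505617 and chr3:145292222-145292471.
Col1a2: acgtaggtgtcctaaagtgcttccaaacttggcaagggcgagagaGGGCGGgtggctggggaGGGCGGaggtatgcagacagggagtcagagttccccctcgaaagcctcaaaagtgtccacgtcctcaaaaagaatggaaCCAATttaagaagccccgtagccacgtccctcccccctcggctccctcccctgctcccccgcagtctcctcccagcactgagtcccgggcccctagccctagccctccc
Col24a1: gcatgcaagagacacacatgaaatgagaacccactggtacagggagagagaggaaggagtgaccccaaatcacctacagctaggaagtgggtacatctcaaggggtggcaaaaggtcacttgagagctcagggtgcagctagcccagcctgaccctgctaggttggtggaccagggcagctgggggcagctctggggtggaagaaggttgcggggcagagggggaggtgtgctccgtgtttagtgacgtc
The *Col1a2* stretch holds GC boxes and a CCAAT, and none of these motifs occurs in that of *Col24a1*. The window of *Col3a1*, of higher level than *Col1a2*, holds TATAAA but no GC box and no CCAAT. Whether the motifs follow level over the windows was not tested. A match is a description of the letters in a window.

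For genes of low level the whole reads of each library could be worked out from the mean of the 2 deposited values, which is the mean over all 6 libraries. This gave 1 solution for 7595 of 7612 genes with a mean under 100, with size factors of 1.01, 1.02 and 1.04 for the WT libraries and 0.916, 0.991 and 1.04 for those of Npffr1-KO. The libraries are numbered within each genotype by size factor and are not tied to the sample labels. *Npffr1* had 5, 0 and 1 reads in the WT libraries and 0 in each Npffr1-KO library, where a count of 0 in a library allows up to 3. Between libraries, Pearson's r over 3073 genes was 0.762 to 0.791 within WT, 0.652 to 0.733 within Npffr1-KO and 0.633 to 0.744 across.

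The reads of 22 members were recovered in this way, and 20 of them had a mean of at least 10. Of the 14 members with a mean of 10 to 100, 1 had all Npffr1-KO libraries below all WT libraries, which was *Col24a1*, against 11.3% of the 3073 genes of that range. None of the 14 had all Npffr1-KO libraries above all WT libraries, against 6.67%. The further 6 members, with means of 100 to 250, overlapped between the groups. Of the 16 members with a mean under 100, none passed an adjusted p of 0.05 in limma, where 0.0219% of 4559 genes were called lower and 0.0439% higher. At an unadjusted p of 0.05, 2 of the 16 passed, *Col24a1* and *Col9a2*, against 11.3% of the 4559 genes.

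*Col24a1* had 44, 42 and 31 reads in the WT libraries and 7, 21 and 10 in those of Npffr1-KO. The groups did not overlap, with 38.2 ± 7.30 normalized counts (SD, n = 3) in WT and 12.8 ± 7.32 (SD, n = 3) in Npffr1-KO. Its log2 difference in limma, on log2 of normalized reads plus 0.5, was -1.66 with a standard error of 0.43 and an adjusted p of 0.17, so it did not pass. Without the first Npffr1-KO library, which held the fewest reads, the difference was -1.37 (limma adjusted p = 0.36), and leaving out each library in turn gave an adjusted p of 0.10 to 0.64. The ratio of these means, 0.335, was farther from 1 than that of the deposited values, 0.429. *Col24a1* is known from developing bone and cornea, where its product joins type I fibrils.

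The chains of cartilage collagens were measured by few reads. *Col9a2* had 71, 49 and 57 reads in WT and 24, 29 and 51 in Npffr1-KO, with a log2 difference of -0.76 (standard error 0.32, limma adjusted p = 0.39) and 1 overlapping library. Its partner *Col9a3* had 49, 57 and 43 reads against 34, 34 and 51. *Col2a1* had 60, 46 and 26 reads in WT and 35, 16 and 27 in Npffr1-KO, with overlapping groups and a log2 difference of -0.68 (limma adjusted p = 0.56). *Col9a1*, whose mean of 3.95 was under the filter, had 5, 11 and 4 reads against 2, 0 and 2, which do not overlap (limma adjusted p = 0.47). *Col10a1*, also under the filter, had 4, 0 and 9 reads against 1, 8 and 4. *Col11a2*, the partner of *Col11a1*, had 139, 129 and 136 reads in WT and 69, 166 and 171 in Npffr1-KO, where the first library stood apart. The reads of *Col11a1* itself were not recovered.

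Chondrocyte markers gave mixed values beside these genes. *Acan*, the cartilage proteoglycan, was lower in all Npffr1-KO libraries (27.3, 34.3 and 28.9 normalized counts, against 54.6, 51.9 and 40.6 in WT). *Sox9*, the transcription factor of chondrocytes, was higher in all of them (81.8, 69.6 and 92.5, against 65.5, 65.6 and 41.5). Of the 3073 recovered genes with a mean of at least 10, 11.3% were lower in this way and 6.67% higher. Neither marker passed in limma (adjusted p = 0.40 for *Acan* and 0.49 for *Sox9*). *Hapln1* overlapped between the groups (limma adjusted p = 0.85). *Matn1* stayed at 1.96 to 8.07 normalized counts in every library. Of the 3 markers with a mean of at least 10, 1 was at least 20% lower and 1 higher, and the summed level of the 6 listed markers was 140 in WT and 144 in Npffr1-KO. The part of these cells in the collagen values was not tested.

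Of the specialised basement membrane chains, *Col4a4* had 37, 36 and 18 reads in WT and 14, 16 and 19 in Npffr1-KO. The Npffr1-KO libraries lay close together, at 16.6 ± 1.56 normalized counts (SD, n = 3), and the third WT library lay among them, so the groups overlapped (log2 difference -0.76, limma adjusted p = 0.51). *Col4a3* had 11, 20 and 17 reads against 14, 11 and 9. *Col4a6* had 27, 32 and 22 reads against 13, 31 and 39, and *Col4a5* 194, 242 and 212 against 178, 215 and 215. The groups overlapped for all of these chains.

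Transmembrane and epithelial collagens overlapped between the groups too. *Col17a1*, which anchors keratinocytes in hemidesmosomes, had 62, 42 and 40 reads in WT and 24, 48 and 63 in Npffr1-KO. It was highest in the first WT and the third Npffr1-KO library, and so was *Krt5*, a keratin of basal keratinocytes, with 10.9 and 20.2 normalized counts in these and 0 in the other 4. The more abundant keratinocyte markers did not follow this order, since *Trp63* was lowest in the third Npffr1-KO library (40.5) and highest in the third WT library (98.5), and *Krt10* was highest in the second WT library (96.9). Of the 8 keratinocyte markers 2 had a mean of at least 10, and the summed level of all 8 was 176 in WT and 147 in Npffr1-KO; their part in the *Col17a1* values was not tested. *Col7a1*, also of the skin basement membrane zone, had 111, 134 and 118 reads against 50, 119 and 131. *Col13a1* had 34, 49 and 23 reads against 23, 26 and 46, *Col25a1* 19, 15 and 15 against 14, 9 and 9, and *Col23a1* 268, 323 and 240 against 178, 222 and 242.

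The remaining recovered members overlapped between the groups as well. *Col22a1*, a collagen of tissue junctions such as that of muscle and tendon, had 107, 55 and 54 reads in WT and 30, 65 and 82 in Npffr1-KO. *Col20a1* had 108, 100 and 114 reads against 70, 107 and 81, and *Col19a1* 8, 26 and 13 against 16, 13 and 6. Among the short chains, *Col8a1* had 153, 214 and 114 reads against 165, 158 and 146, and *Col8a2* 38, 33 and 22 against 15, 16 and 36. *Col6a5* had 141, 150 and 87 reads against 85, 109 and 106. The first Npffr1-KO library was the lowest of the 6 for 10 of the 20 members. The first WT library was the highest for 8 and the second WT library for 9. How often these libraries were lowest or highest over all genes was not counted, so whether the counts are particular to collagens is not known. Summed over the 20, the first Npffr1-KO library held 1154 normalized counts. The other Npffr1-KO libraries held 1444 and 1484, and those of WT 1354 to 1756, so these sums overlapped between the groups.

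**Figure D4:**
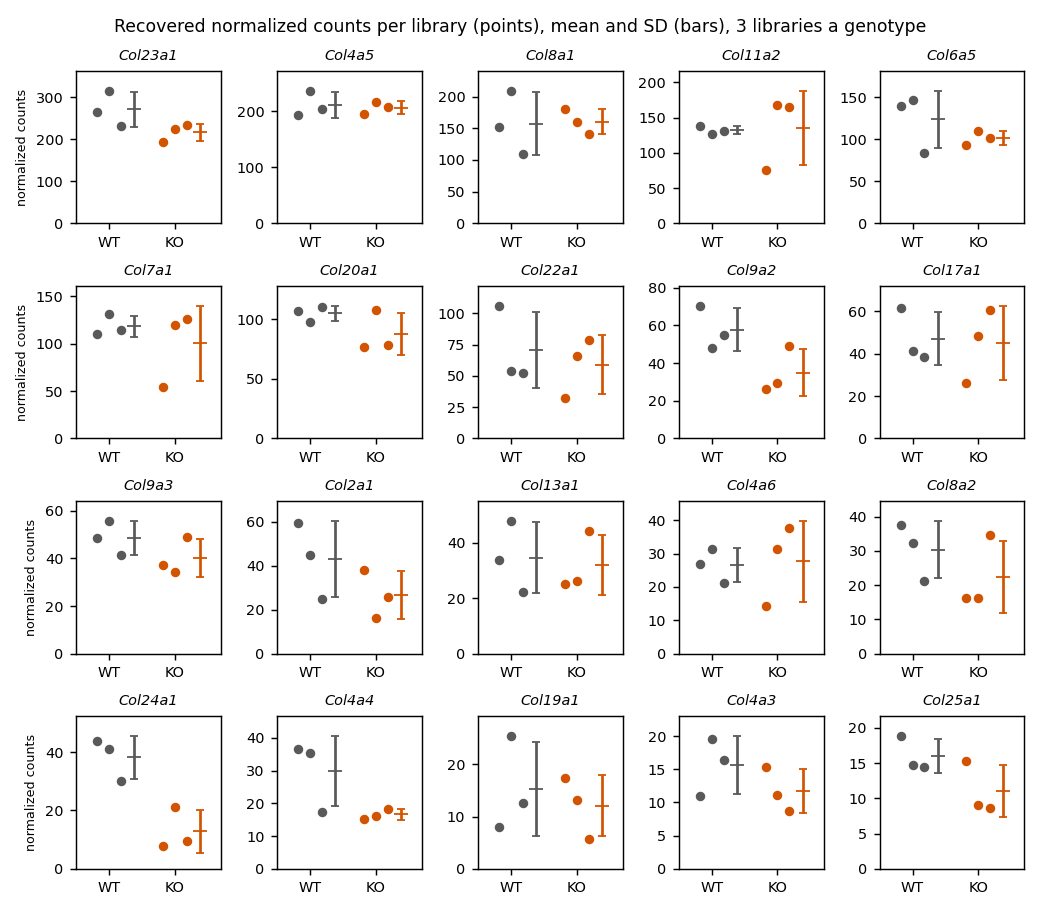
Recovered normalized counts per library (points, ordered by library number) with mean and SD (bars, n = 3) for the 20 collagen genes with recovered reads and a mean of at least 10, in WT (grey) and Npffr1-KO (orange). In *Col24a1* the groups lie apart, at 38.2 and 12.8 on average, and in the other 19 they overlap.

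The genes that modify, export, cleave and cross-link collagen were taken from lists of their known functions. Their counts are read against 11.6% of all genes lower and 12% higher before centring on length, and 11.6% and 8.2% after it. Of 15 hydroxylases and glycosylation genes 1 was at least 20% lower and 0 at least 25% higher, with a median log2 ratio of -0.04, and the counts after centring were the same. *P4hb*, a subunit of prolyl 4-hydroxylase, measured 12553 in WT and 12178 in Npffr1-KO, and *P4ha3*, an alternative catalytic subunit, measured 190 and 140. Of 11 folding and export genes 1 was lower and 1 higher before and after centring, with a median of -0.05. The collagen chaperone *Serpinh1* had a ratio of 1.07 (19816 and 21144), and *Hspa5*, a general chaperone of the endoplasmic reticulum, one of 1.29. *Creb3l1*, a transcription factor that promotes collagen secretion, was the lower member with a ratio of 0.794.

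Of 7 genes of propeptide cleavage 3 were at least 20% lower and 0 at least 25% higher, with a median log2 ratio of -0.18. After centring 1 was lower, *Tll1*, and the median was -0.29. The 3 were *Bmp1*, which cleaves the C-propeptide (5445 and 4200, a ratio of 0.771), its relative *Tll1* (158 and 111, 0.705) and *Adamts14*, which cleaves the N-propeptide (506 and 383, 0.756). Of 5 cross-linking genes of the lysyl oxidase family 2 were lower and 0 higher, with a median of -0.25, and after centring none was lower or higher, with a median of -0.18. The 2 were *Loxl2* (0.795) and *Loxl3* (0.788), whereas *Loxl1*, the highest of the list, had 6162 and 6265.

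Fibril-binding matrix proteins also had mostly lower values. Of 15 genes 4 were at least 20% lower and 0 at least 25% higher, with a median log2 ratio of -0.25, and after centring on length 4 were lower and all 15 lay below 0. *Sparc*, a collagen-binding glycoprotein, measured 184119 and 168828, *Postn* 62723 and 50794, and the proteoglycan *Dcn* 23689 and 19239. The largest difference in size was that of *Kera* (16.9 and 9.63), and the next that of *Thbs2* (4327 and 3098, a ratio of 0.716). Of 16 laminins and other basement membrane partners 6 were lower and 1 higher before centring, with a median of -0.30. These are long genes, with a median length of 6339 bases, and among the genes of the 3 longest classes 19.2% were lower. After centring 0 of the 16 were lower and 2 higher, with a median of -0.18. Perlecan (*Hspg2*) measured 34915 and 27844, *Nid1* 31988 and 25815, and *Lamc1* 17213 and 14253. The higher gene before centring was *Lamb3*, a laminin chain of epithelia, with 70.8 and 102. Of 9 receptors and uptake genes 2 were lower and 0 higher before centring, with a median of -0.05, and 2 lower and 1 higher after it, with a median of 0.06. *Itgb1* had 13706 and 12699, and the lower genes were the collagen-binding integrins *Itga2* (0.621) and *Itga10* (0.669).

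**Figure D5:**
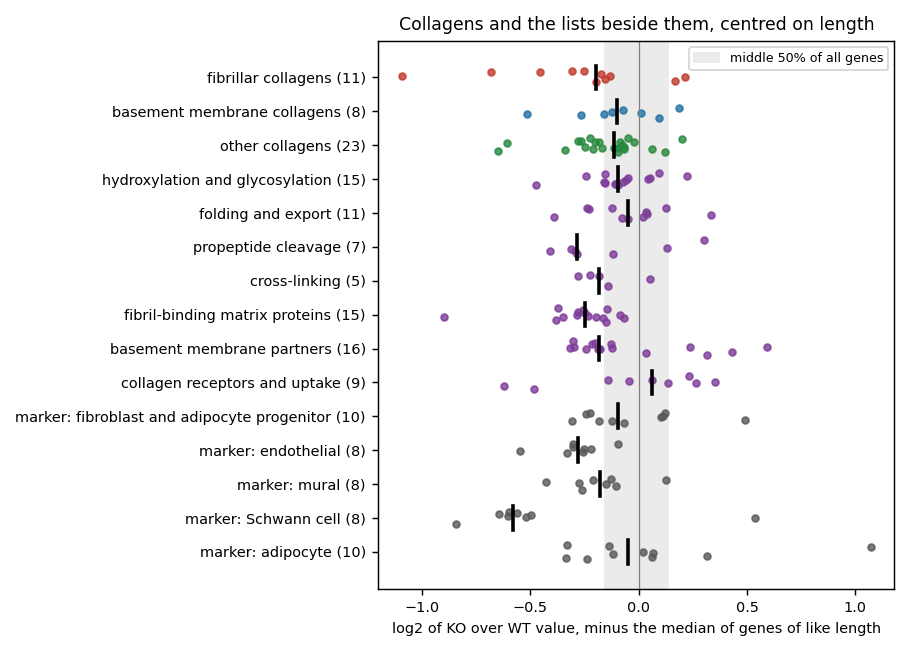
Log2 ratio of the Npffr1-KO over the WT value minus the median of genes of like length, for each gene with a mean of at least 10 (points) in the collagen classes, the matrix lists and 5 marker lists, with the number of genes in brackets and the median of each list as a black line. The grey band holds the middle 50% of all genes, from -0.16 to 0.14. The medians of fibrillar collagens (-0.20), propeptide cleavage (-0.29), cross-linking (-0.18), fibril-binding matrix proteins (-0.25), basement membrane partners (-0.18), endothelial (-0.28), mural (-0.18) and Schwann cell markers (-0.58) lie left of it.

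Markers of the cells of the tissue were read in the same way, before and after centring on length. In a piece of tissue fewer cells of a type and less RNA per cell cannot be told apart. Of 10 markers of fibroblasts and adipocyte progenitors 1 was at least 20% lower (*Pdgfra*, 1894 and 1467) and 1 higher (*Thy1*, 3533 and 5377), with a median log2 ratio of 0.00 and a summed level 1.02 times that of WT. After centring 0 were lower and 1 higher, with a median of -0.10. Endothelial markers were lower in 4 of 8 and higher in 0, with a median of -0.32 and a summed level of 72177 in WT and 58074 in Npffr1-KO, and after centring 2 were lower, with a median of -0.28. Mural cell markers were lower in 2 of 8 and higher in 0, with a median of -0.20 and sums of 52755 and 45008, and after centring 1 was lower, with a median of -0.18. Schwann cell markers were lower in 7 of 8, with a median of -0.52 and sums of 37999 and 27464, and *S100b* was the higher one (472 and 743). After centring these counts were the same, with a median of -0.58. Adipocyte markers were lower in 0 of 10 and higher in 2, with a median of 0.09 and a summed level 1.03 times that of WT. After centring the direction turned, with 2 lower (*Cfd* and *Retn*), 1 higher (*Lep*) and a median of -0.05. Skeletal muscle markers were higher in 5 of 6 before and after centring, with sums of 409 and 768, and *Myh2* among them came mainly from the third Npffr1-KO library, at 70.4 normalized counts against 0 to 12.1 in the others. Of 8 macrophage markers 1 was lower and 2 higher, with a median of 0.23, and after centring 1 was lower and 0 higher, with a median of 0.06. The part of each cell type in the collagen values was not tested.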

How the data were processed

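RNA was extracted with TRIzol and sequenced from iAT of 3 WT and 3 Npffr1-KO samples, grouped by the labels. The authors deposited a signal on the scale of read counts normalized for library size, as 1 value per gene and genotype, with the gene length. The submitters' processing notes name Bowtie2, RSEM and DESeq2. Their versions are not stated there, nor is a genome build. The columns of the authors' fold changes and p-values, and a second table of selected genes, were not read for any result. The ratio of the 2 genotype values nevertheless equals that fold change, so the ratios given are not an independent estimate. The members and gene lists were chosen with earlier results of these data known.

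Genes with a mean of at least 10 were described by the ratio of their values (Python 3.11.15, pandas 2.3.3). To account for length, genes were put in 20 length classes of equal number, and the class median was subtracted from each log2 ratio. Whole reads per library were searched for genes with a mean under 100, and for members up to 250 as a description. The size factors were worked out from the values of genes with a single read. A library took the genotype whose value was higher for its single-read genes. Genes with a mean of at least 3 were tested with limma 3.58.1 (R 4.3.3) on log2 of normalized reads plus 0.5, with Benjamini-Hochberg adjustment over all 4559. The search and the test were first tested on simulated data. The limma test found 50% of 200 changed genes among 4520 simulated ones and called 4 unchanged genes. The spread of the simulated counts was set beforehand and not taken from these data. A gene that did not pass may therefore still differ. Named genes were all members, those of high level, at least 20% lower or with recovered reads with their values, and of each other list at most the 4 with the highest mean and the 2 with the largest ratio. *Matn1*, *S100b*, *Myh2* and *Retn* were named after their values were seen.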

Additional observations from a re-analysis of the deposited data

How the results depend on the processing

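No paired analysis was possible because the recovered libraries could not be tied to the sample numbers. Of 388 alternative values, 321 were rated as unchanged. For counts this meant within 1.5-fold of the main value, and for medians a shift under 0.1 in log2, whatever the sign. For single genes it meant the same sign and the same side of the threshold. The count of 13 lower collagens became 32 at 1.1-fold, 5 at 1.5-fold, 7 with a mean of at least 100 and 7 after centring on length. The centred count of 7 became 22 at 1.1-fold and 4 at 1.5-fold, and that of higher ones 4 at 1.1-fold. Over 20, 10 and 50 classes of length and with 5 classes of level in 10 of length, the median log2 ratio came to -0.20, -0.20, -0.20 and -0.18 for fibrillar, -0.098, -0.089, -0.091 and -0.10 for basement membrane and -0.11, -0.12, -0.13 and -0.11 for other collagens, to -0.29, -0.30, -0.29 and -0.30 for propeptide cleavage and to -0.18, -0.18, -0.17 and -0.17 for basement membrane partners. With level classes that of all collagens was -0.13. The median of the receptors turned to 0.060, 0.056 and 0.059 in 20, 10 and 50 classes and to 0.046 with level classes. These shifts follow from the medians subtracted. Without centring, the receptor median was -0.048, and 0.031 at a mean of at least 100. Without *Col1a1*, *Col1a2* and *Col3a1* the collagen share was 1.55% in WT and 1.29% in Npffr1-KO.

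In limma no collagen was called under any alternative. Over all genes 1 was called lower and 2 higher, against 5 lower with a pseudocount of 1, 7 lower and 4 higher without the filter, 1 higher at a mean of at least 10 and 4 and 4 when scaled by the median ratio. Without single libraries 1 to 3 were lower and 0 to 2 higher. The cause was not tested. *Col24a1* kept a negative difference throughout, from -2.07 to -1.37 with adjusted p of 0.10 to 0.64, the least negative without the first Npffr1-KO library. Differences whose sign rested on 1 library were those of *Col17a1* (-0.37 to 0.23), *Col22a1* (-0.52 to 0.11), *Col13a1* (-0.38 to 0.17), *Col4a6* (-0.30 to 0.39, and 0.047 when scaled by the median ratio), *Col19a1* (-0.67 to 0.14) and *Col10a1* (-0.72 to 1.38), none of them past the threshold. The 22 members without recovered reads, the abundant ones among them, allow no statement on replicate error.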
